A study of Rattus norvegicus and Ovis aries with 113 samples.

Results

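The genes described here encode 10 proteins of the acrosome and of sperm-egg fusion: acrosin (ACR), its binding protein ACRBP, the zona pellucida binding proteins ZPBP and ZPBP2, the sperm acrosome associated proteins SPACA1, SPACA3 and SPACA4, equatorin (EQTN), IZUMO1 and the hyaluronidase SPAM1. They were found by upper-cased symbol in the count tables, where all 10 were among the 38675 genes of the rat table and 9 were among the 31304 genes of the sheep table. SPAM1 in sheep was not analysed here. RNA had been sequenced to set the brain beside reproductive samples, as the title of the study asks which genes link both systems. Of 113 libraries, 55 came from sheep (Ovis aries) and 58 from Sprague Dawley rats. The sheep were 5 post-pubertal males, numbered 687, 688, 690, 694 and 699, each giving sperm and 10 brain regions: basal ganglia (BG), cerebellum (CB), entorhinal (EC), frontal (FC), motor (MC), prefrontal (PC), posterior parietal (PPC) and visual cortex (VC), hippocampus (HC) and pons. The rats were 15 post-pubertal males, with whole brain and a sample labelled sperm that was taken as seminal fluid, and 14 females, with whole brain and ovary. No group was treated, none carried a stated genetic change, and the age of the females is not in the labels.

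The acrosome is a secretory vesicle that caps the sperm nucleus. It is built in round spermatids, where its genes are transcribed, and its contents are released at the zona pellucida, the coat of the egg, before the sperm and egg membranes fuse. Transcription stops as the sperm head condenses, so RNA in mature sperm is largely a remnant of spermatogenesis, and these genes are widely used as marks of late male germ cells.

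Levels are counts per 1000000 (CPM) of the library total scaled by trimmed mean of M values (TMM) factors, within each species. A difference is a log2 fold change with its standard error (SE) from edgeR's quasi-likelihood test, and a gene was called when its Benjamini-Hochberg adjusted p over all genes tested was below 0.05 and the fold change was at least 1 on the log2 scale. Totals ran from 13.7 M to 65.1 M counts (M, 1000000) in both sperm groups, from 46.7 M to 72.4 M in sheep brain, from 38.2 M to 119 M in rat brain and from 50.5 M to 60.3 M in ovary. Several libraries stood apart. In sheep sperm, 7 entries held 30.2% to 90.4% of all counts, against 9.83% to 21.9% in sheep brain, and TMM factors were 0.114 to 0.305, so scaling raised every sheep sperm level. Rat sperm libraries 7, 16 and 17 held 215, 196 and 161 genes at exactly 1 count, against 1036 to 2005 in the other rat sperm libraries. Without the 3, all 7 rat members that passed the filter in the full set of sperm libraries stayed called. In sheep sperm such genes numbered 339, 428 and 340 in sheep 687, 694 and 699, against 987 and 1038 in sheep 688 and 690. In rat brain, 4 entries, the ribosomal Rn45s and Rn28s among them, held 86.9% and 83.1% of libraries 1 (female) and 4 (male). The 12 late spermatid and sperm markers (PRM1, TNP1, ODF1 and the like) summed to 214 to 23397 CPM in rat sperm and at most 19.5 CPM in male rat brain, with 0 to 2 of the 12 at 0 in a sperm library. In sheep sperm 11 of these markers summed to 243 to 8209 CPM and none was at 0. Leukocyte markers were high in sheep sperm (13966 to 159045 CPM summed over 6 genes) and lower in rat sperm (224 to 1753 CPM). Neuron markers summed to 4323 to 5396 CPM in male rat brain and 434 to 4635 CPM in sheep brain, and ovary somatic markers to 1711 to 3803 CPM in ovary, as the labels of these tissues say. In samples of mixed tissue, fewer cells of a type and less RNA per cell cannot be told apart.

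In the rat genome (GRCr8, RefSeq), the 10 genes lay on 6 chromosomes, with Izumo1 (chromosome 1, 105227603 to 105233357) and Spaca4 (chromosome 1, 105331973 to 105332646) separated by 98615 bases that hold 9 genes. RefSeq promoter windows, 250 bases before to 50 after a gene's start, were at hand for 9 of the 10, all but Spaca3. Distances are counted from the start site of the window, which is the annotated outer start of the gene for Izumo1, Spaca4 and Spam1. In the other 6 that site lies inside the annotated gene, by 4 bases in Acrbp, 24 in Acr, 100 in Zpbp2, 161 in Spaca1, 290 in Zpbp and 3114 in Eqtn. They were searched on both strands for the cAMP response element TGACGTCA and its shorter core TGACG, for the TATA box letters TATAAA and for the CCAAT box, the first pair because cAMP responsive transcription is known to act in round spermatids. The full TGACGTCA, which contains TGACG on both strands, was found in 1 window, that of Izumo1, 99 bases before the start. It occurs in 1.83% of the 33469 windows of the table. TGACG was found in the windows of Acr, Acrbp, Izumo1 and Spaca1, 4 of 9 genes, against 21.2% of all windows. TATAAA was in the windows of Eqtn and Spam1 (14.2% of all windows) and CCAAT in those of Acr, Izumo1 and Spaca4 (37.5% of all windows). A match is a description of letters, not of a bound site. The 4 windows that hold TGACG are shown because they let the full element of Izumo1 be set beside single cores, with TGACG or its reverse complement in capitals:
Izumo1 (chr1:105227353-105227652, plus strand): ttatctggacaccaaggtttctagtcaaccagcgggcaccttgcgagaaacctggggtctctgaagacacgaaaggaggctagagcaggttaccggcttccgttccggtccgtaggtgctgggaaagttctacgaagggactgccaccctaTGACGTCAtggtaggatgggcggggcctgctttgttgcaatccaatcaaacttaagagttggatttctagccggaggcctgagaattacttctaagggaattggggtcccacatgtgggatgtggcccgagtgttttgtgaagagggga
Spaca1 (chr5:53336808-53337107, minus strand): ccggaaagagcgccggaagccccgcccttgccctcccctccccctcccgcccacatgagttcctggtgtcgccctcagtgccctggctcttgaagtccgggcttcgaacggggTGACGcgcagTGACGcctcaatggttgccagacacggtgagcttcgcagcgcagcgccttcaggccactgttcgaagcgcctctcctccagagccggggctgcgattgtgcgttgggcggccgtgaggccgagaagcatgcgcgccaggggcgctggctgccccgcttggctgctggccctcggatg
Acrbp (chr4:159537149-159537448, plus strand): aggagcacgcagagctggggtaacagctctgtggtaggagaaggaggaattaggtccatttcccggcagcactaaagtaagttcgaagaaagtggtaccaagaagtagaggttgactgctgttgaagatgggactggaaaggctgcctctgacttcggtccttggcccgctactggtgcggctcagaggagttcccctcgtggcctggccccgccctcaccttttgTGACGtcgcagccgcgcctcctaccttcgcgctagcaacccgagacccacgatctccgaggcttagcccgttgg
Acr (chr7:122517684-122517983, plus strand): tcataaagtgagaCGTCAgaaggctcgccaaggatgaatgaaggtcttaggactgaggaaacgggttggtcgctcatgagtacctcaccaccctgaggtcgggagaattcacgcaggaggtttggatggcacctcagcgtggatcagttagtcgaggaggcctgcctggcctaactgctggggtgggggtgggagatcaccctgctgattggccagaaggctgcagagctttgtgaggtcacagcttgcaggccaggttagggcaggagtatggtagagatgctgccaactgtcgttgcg
The capitals of Izumo1 run over 8 bases, those of Spaca1 mark 2 cores 137 and 127 bases before the start site of the window, both inside the annotated gene, and those of Acrbp mark 1 core 24 bases before it. In Acr the core lies on the other strand, 237 bases before the start, where the letters read as its reverse complement.

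Rat sperm libraries differed widely in these genes. For each of the 10 genes the 4 highest of the 15 sperm libraries were numbers 14, 7, 3 and 13, in 1 order or another. These 4 held 60.9% of the summed CPM of Acrbp, 74.0% of that of Zpbp2, and between 88.5% (Zpbp) and 99.1% (Spam1) of that of the other 8. Spam1, the surface hyaluronidase that opens the matrix of the cumulus cells, shows the spread. It stood at 99.2, 81.6, 23.4 and 9.97 CPM in libraries 14, 7, 3 and 13, at 0.250 to 1.29 CPM in libraries 4, 9 and 15, and at 0 in the other 8. Acr, the serine protease of the acrosome, had the same 4 libraries on top, with 63.0, 26.8, 7.81 and 18.1 CPM in libraries 14, 7, 3 and 13. It was next highest in libraries 17 and 16, at 7.09 and 3.66 CPM, where 6 and 5 of the 10 genes were at 0. The map of rat sperm libraries shows these columns side by side.

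**Figure D1:**
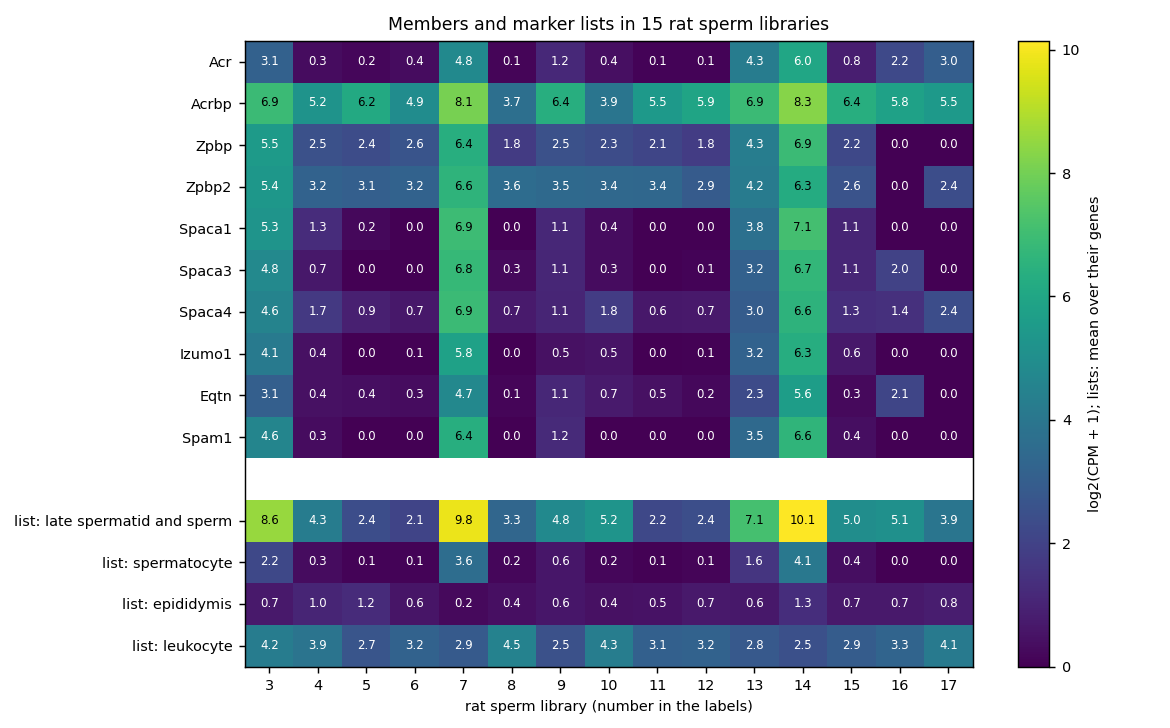
Heat map of log2(CPM + 1) for the 10 genes (upper rows) and the mean log2(CPM + 1) of 4 marker lists (lower rows) in the 15 rat sperm libraries, ordered by their number in the labels. Libraries 3, 7, 13 and 14 are the brightest columns for the members and for the late spermatid and spermatocyte lists, while the epididymis and leukocyte lists show no such columns.

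Germ cell markers moved with these ranks. The mean log2(CPM + 1) of the late spermatid list was 10.14, 9.83, 8.56 and 7.14 in libraries 14, 7, 3 and 13, and at most 5.24 in the others. Spermatocyte markers (SYCP1, SYCP3 and 4 more) summed to 178, 144, 35.0 and 17.8 CPM in these libraries and to at most 3.93 CPM elsewhere, where 0 to 6 of the 6 were at 0. Across the 15 libraries, the mean level of the 10 genes had a Spearman correlation of 0.87 with the late spermatid list, 0.80 with the spermatocyte list, 0.22 with the epididymis list and -0.46 with the leukocyte list. It was 0.81 with the neuron list, 0.66 with the ovary somatic list, 0.66 with the oocyte list and -0.35 with the squamous epithelium list. It was 0.31 with the library total and 0.76 with the number of genes detected. All these values come from the same libraries and scaling, and their part in the levels of the acrosome genes was not tested.

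Between pairs of the 10 genes, the Spearman correlation over the 15 rat sperm libraries was 0.41 to 0.93, with a median of 0.71 over the 45 pairs. Genes were also set against the mean of the 10, a different measure. Over the 9776 genes that averaged at least 10 CPM, that correlation had a median of -0.24. Members at that level, which are part of the mean, had 0.56 (Zpbp2) to 0.92 (Spam1). Of the other genes, 7.78% were above 0.80. Spam1 and Spaca1, an acrosomal membrane protein needed to shape the sperm head, formed the closest pair at 0.93. Zpbp2 and Acrbp formed the least alike pair at 0.41. Zpbp2, a zona pellucida binding protein of the acrosomal matrix, kept 4.20 to 11.2 CPM in 10 of the 11 libraries outside the top 4 and was at 0 in library 16. Acrbp, which holds proacrosin in its inactive form, kept 12.2 to 81.6 CPM in those 11 libraries. Without libraries 16 and 17 the median over pairs was 0.80. The 5 genes most like the mean of the 10 were Cage1 (correlation 0.96), Rad9b (0.96), Cacna2d3 (0.96), Spa17 (0.95) and C9h2orf88 (0.95). Only 1 of these 5 stayed among the top 5 without libraries 16 and 17, and 2 stayed with plain library totals.

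Rat sperm was set against the male brain to ask which of these transcripts mark the reproductive sample. The low-count filter passed 7 of the 10 genes, and all 7 were called higher in sperm, where 27.7% of the 20480 genes tested were called higher, 31.5% lower and 59.1% in either direction. Their median log2 fold change was 4.21, and that of all genes was -0.03. Spaca4, with at most 2 counts in a male brain library, passed the filter through sperm alone, while the others had counts in all 15 male brains. The count describes the 7 and not the 10. The group means hide 2 kinds of distribution. Acrbp and Spaca4 were above every male brain library in all 15 sperm libraries. Acr, Izumo1 and Eqtn had sperm medians below their brain medians, with a few libraries far above all brains. How many of all genes lay wholly apart between groups was not counted, in this comparison or any other.

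**Figure D2:**
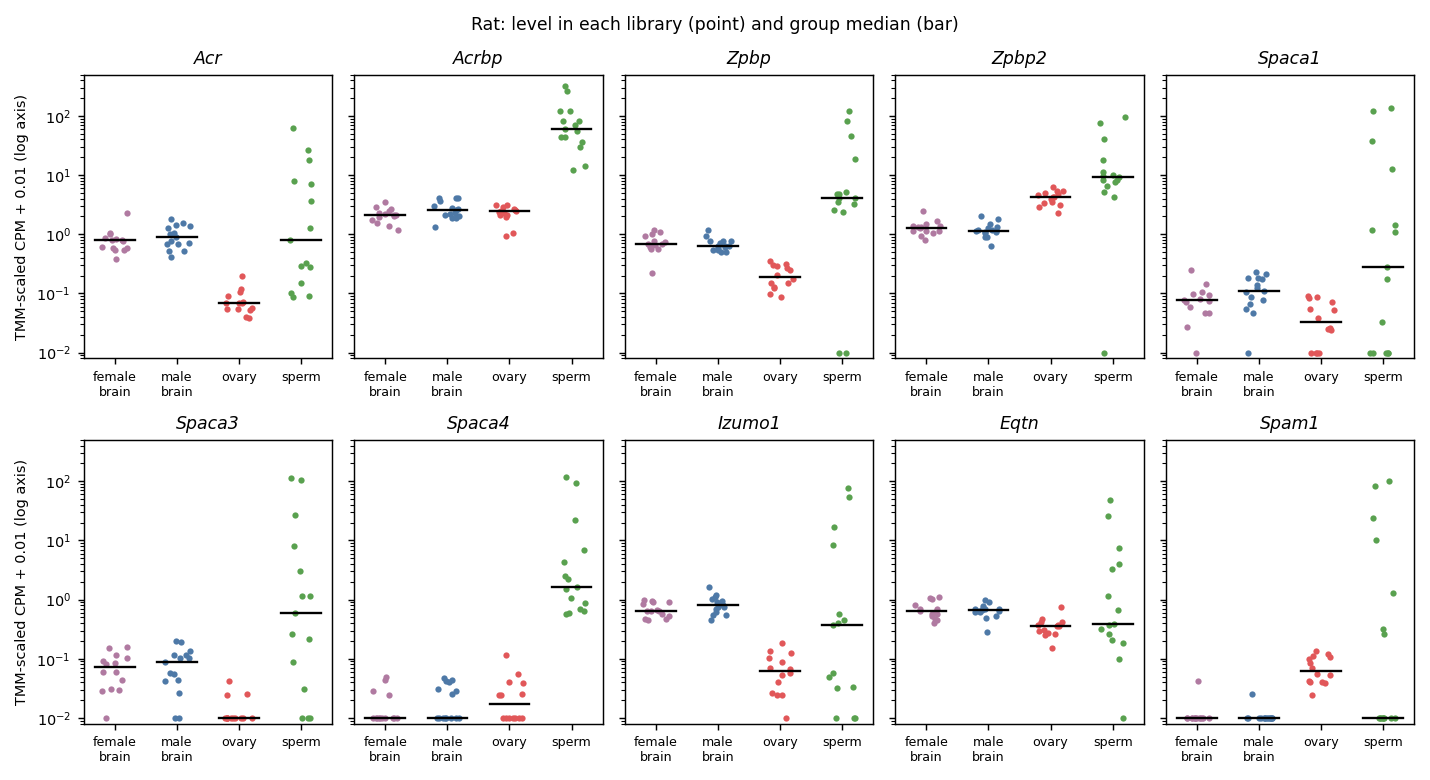
Level of each of the 10 genes in every rat library, as TMM-scaled CPM plus 0.01 on a log axis, with each point 1 library and each bar a group median (14 female brains, 15 male brains, 14 ovaries, 15 sperm samples). Sperm points spread widely for each gene, and only Acrbp and Spaca4 lie wholly above the male brain points.

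Among proteins of the acrosomal matrix, Acrbp ranged from 12.2 to 314 CPM in sperm with a median of 58.98, and from 1.32 to 4.11 CPM in male brain with a median of 2.60. The ranges were apart, and the log2 fold change was 5.16 ± 0.42 (SE, edgeR adjusted p = 1.76e-12). Zpbp, the zona binding relative of Zpbp2, had a lowest, median and highest level of 0, 4.16 and 120.3 CPM in sperm against 0.485, 0.618 and 1.16 CPM in male brain. In 13 of 15 sperm libraries it was above all brains, and it was at 0 in libraries 16 and 17, for a fold change of 5.04 ± 0.80 (edgeR adjusted p = 1.38e-06) and 4.30 without library 14. Zpbp2 ran from 0 through a median of 9.44 to 94.6 CPM in sperm and from 0.625 through 1.14 to 1.99 CPM in male brain. Only library 16 was not above all brains, and the fold change was 4.21 ± 0.58 (edgeR adjusted p = 1.08e-07). Acr had a lowest, median and highest level of 0.0770, 0.802 and 63.0 CPM in sperm, against 0.403, 0.903 and 1.82 CPM in male brain. It was above all brains in 6 sperm libraries and below all brains in 7. Its fold change of 3.29 ± 0.83 (edgeR adjusted p = 6.63e-04) fell to 2.26 without library 14.

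Among surface and membrane proteins, Spaca4, a small GPI-anchored protein of the Ly6 family that takes part in zona binding, ran from 0.555 through a median of 1.64 to 118 CPM in sperm. Male brain held 11 counts of it in 7 of 15 libraries and at most 0.0369 CPM. The groups did not overlap, and the fold change was 10.26 ± 1.17 (edgeR adjusted p = 2.46e-09), 9.56 without library 7 and 7.62 with DESeq2. Eqtn, an acrosomal membrane protein that stays on the equatorial segment, was at 0 to 49.0 CPM in sperm with a median of 0.370, and at 0.278 to 0.990 CPM in male brain with a median of 0.654. It lay above all brains in 6 sperm libraries and below all brains in 5. Its fold change was 3.42 ± 0.83 (edgeR adjusted p = 4.42e-04) and 2.27 without library 14. Izumo1, the sperm ligand of the egg receptor JUNO, reached 78.2 CPM in library 14 but had a sperm median of 0.357 CPM and was at 0 in 3 libraries. Male brain levels of Izumo1 ran from 0.446 through 0.789 to 1.64 CPM. Only libraries 3, 7, 13 and 14 were above all brains, and 10 of 15 sperm libraries were below all of them. Its fold change was 3.82 ± 1.08 (edgeR adjusted p = 0.00202), and 2.80 without library 14.

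The remaining 3 genes were too low for the filter. Spaca1 was at 0 to 137 CPM in sperm (median 0.275) and 0 to 0.219 CPM in male brain (median 0.0989). Spaca3, a lysozyme-like protein of the acrosome, was at 0 to 111 CPM in sperm (median 0.572) and 0 to 0.190 CPM in male brain (median 0.0785). Above all brains stood 8 sperm libraries for Spaca1 and 10 for Spaca3, and the groups overlapped for both. Spam1 had 12031 counts in 7 of 15 sperm libraries and 1 count in the 15 male brains, a ratio of 14833 whose 95% exact counting interval runs from 2662 to 585903 and covers counting error only. With no filter all 3 were called higher (edgeR adjusted p = 1.34e-05 for Spaca1, 4.76e-06 for Spaca3 and 1.04e-06 for Spam1). In that fit 36.6% of the 35486 genes tested were called higher and 25.6% lower.

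Brain and sperm samples of the rats carry the same numbers in the labels. With that number as a block, 4 of the 7 tested genes kept the call: Acrbp (4.64), Zpbp (3.04), Zpbp2 (3.25) and Spaca4 (8.12). In the blocked fit the log2 fold change was 0.42 for Acr (edgeR adjusted p = 0.710), 0.41 for Eqtn (edgeR adjusted p = 0.641) and -1.39 for Izumo1 (edgeR adjusted p = 0.312). These 3 are the genes whose sperm median lay below the brain median. In that fit 21.4% of all genes tested were called higher and 36.8% lower, and their median was -0.36.

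**Figure D3:**
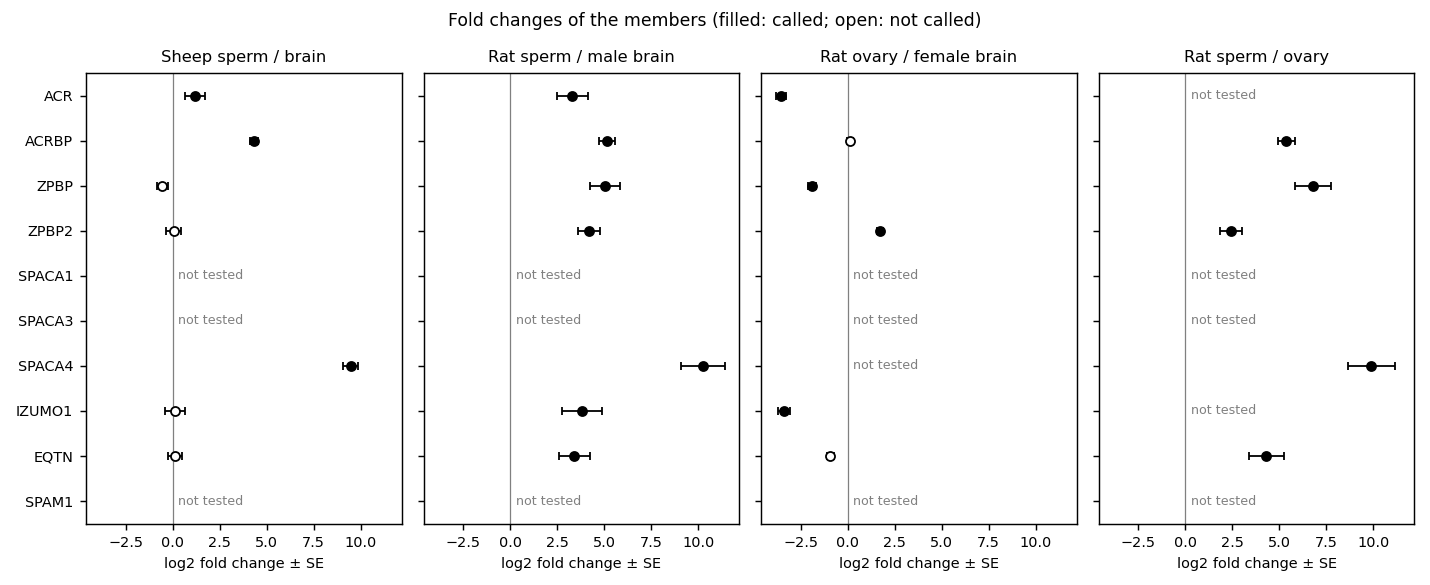
Log2 fold change with SE of each gene in 4 comparisons (filled points were called, open points were not, and genes that did not pass the low-count filter are marked as not tested). Each tested gene lies to the right of 0 in both rat sperm comparisons, while 4 of the 7 points in sheep lie near 0 and are open.

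In sheep, each animal's sperm could be read against 10 regions of brain, whose average served as the reference. ACRBP and SPACA4 were higher in sperm, ACR was called on 14 counts in 2 animals, 12 of them in 1, and ZPBP, ZPBP2, IZUMO1 and EQTN were not called. Thus 3 of 7 tested genes were called higher, where 33.1% of the 21859 genes tested were called higher, and none was called lower, where 41.1% were (74.2% in either direction). The median log2 fold change was 0.13 over the 7 genes and -0.42 over all genes. SPACA4 could pass the filter through sperm alone, so the count describes these 7 genes. The other genes, SPACA1 and SPACA3, did not pass the filter.

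In sperm of sheep 687, 688, 690, 694 and 699, ACRBP stood at 50.3, 2.18, 32.9, 15.9 and 54.3 CPM. Brain libraries ran from 0.381 to 3.21 CPM, so 4 of 5 sperm samples were above all 50 and sheep 688 was inside their range. Its log2 fold change was 4.34 ± 0.22 (SE, edgeR adjusted p = 2.17e-24). All groups of the sheep fit share 1 estimate of the spread, and the brain libraries of an animal enter it as separate samples. SE and adjusted p of any gene in this fit therefore do not measure the spread between the 5 sperm samples. SPACA4 was at 10.7, 6.47, 13.2, 2.89 and 17.9 CPM in sperm and had 59 counts over the 50 brain libraries, with a highest brain level of 0.153 CPM. The groups did not overlap, and the fold change was 9.48 ± 0.41 (edgeR adjusted p = 1.30e-25). SPACA3 stood at 11.8, 0.405, 1.98, 1.33 and 16.7 CPM in the 5 sperm samples, all above the highest brain library (0.0509 CPM), and brain held 10 counts of it in all. SPACA1 was at 0, 0.243, 1.98, 2.22 and 1.69 CPM in sperm, with 19 counts over the 50 brains. With no filter SPACA1 and SPACA3 were called higher, by 7.84 ± 0.59 and 10.64 ± 0.48 (edgeR adjusted p = 7.65e-14 and 8.83e-20). In that fit 36.5% of the 29381 genes tested were called higher and 32.2% lower.

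Sheep 688 had the lowest sperm level of ACRBP and SPACA3. In that sample the late spermatid markers summed to 243 CPM, the lowest of the 5, and leukocyte and squamous epithelium markers to 159045 and 83894 CPM, the highest of the 5. The part of these other cells in the levels of the acrosome genes was not tested.

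ZPBP had counts in all 50 sheep brain libraries, at 5.01 ± 1.52 CPM (SD, n = 50). In sperm it was at 0.671, 0.809, 4.94, 7.10 and 3.48 CPM, which overlapped the brain range of 1.34 to 7.26 CPM. Its log2 fold change was -0.55 ± 0.28 (edgeR adjusted p = 0.0683), and without sheep 694 it was -1.12 and called lower (edgeR adjusted p = 0.00221). ZPBP2 was at 0, 0.566, 0.988, 1.11 and 1.69 CPM in sperm, inside or under the brain range of 0.204 to 3.02 CPM, with a fold change of 0.06 ± 0.40 (edgeR adjusted p = 0.900). EQTN was at 0, 0.243, 2.30, 2.89 and 0.899 CPM in sperm and at 0.275 to 6.48 CPM in brain, with a fold change of 0.11 ± 0.37 (edgeR adjusted p = 0.795). For these 3 genes no sperm sample was above all brain libraries.

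Very few counts stood behind ACR and IZUMO1 in sheep sperm. ACR had 0, 0, 0, 2 and 12 counts in the 5 samples, or 1.35 CPM in sheep 699 against a brain range of 0.0318 to 0.531 CPM. Its call (1.18 ± 0.52, edgeR adjusted p = 0.0342) was lost with the animal as a block (1.05, edgeR adjusted p = 0.0661) and with no filter (1.05, edgeR adjusted p = 0.0646), and without sheep 699 the fold change was -1.21 (edgeR adjusted p = 0.178). IZUMO1 had 12 counts in sheep 687 and 0 in the other 4 samples, which gave 0.13 ± 0.54 (edgeR adjusted p = 0.832). Without sheep 687 no count was left and IZUMO1 was called lower (edgeR adjusted p = 1.91e-05). The direction of ACR changed without sheep 699, and that of IZUMO1 without sheep 687.

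Scaling decided several directions in sheep. With plain library totals the median of all genes moved from -0.42 to -2.84, the calls over all genes from 7239 higher and 8976 lower to 3249 higher and 15084 lower, and 7 members were called. ACRBP (1.67, against 4.34 with TMM factors) and SPACA4 (6.89, against 9.48) stayed higher, whereas ACR (-1.32), ZPBP (-2.82), ZPBP2 (-2.32), IZUMO1 (-2.75) and EQTN (-2.13) were lower in sperm. These values stand against the median of -2.84 on that scale. Upper quartile factors moved the median to 0.31, with 8907 genes higher and 6980 lower, and ZPBP to 0.24.

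**Figure D4:**
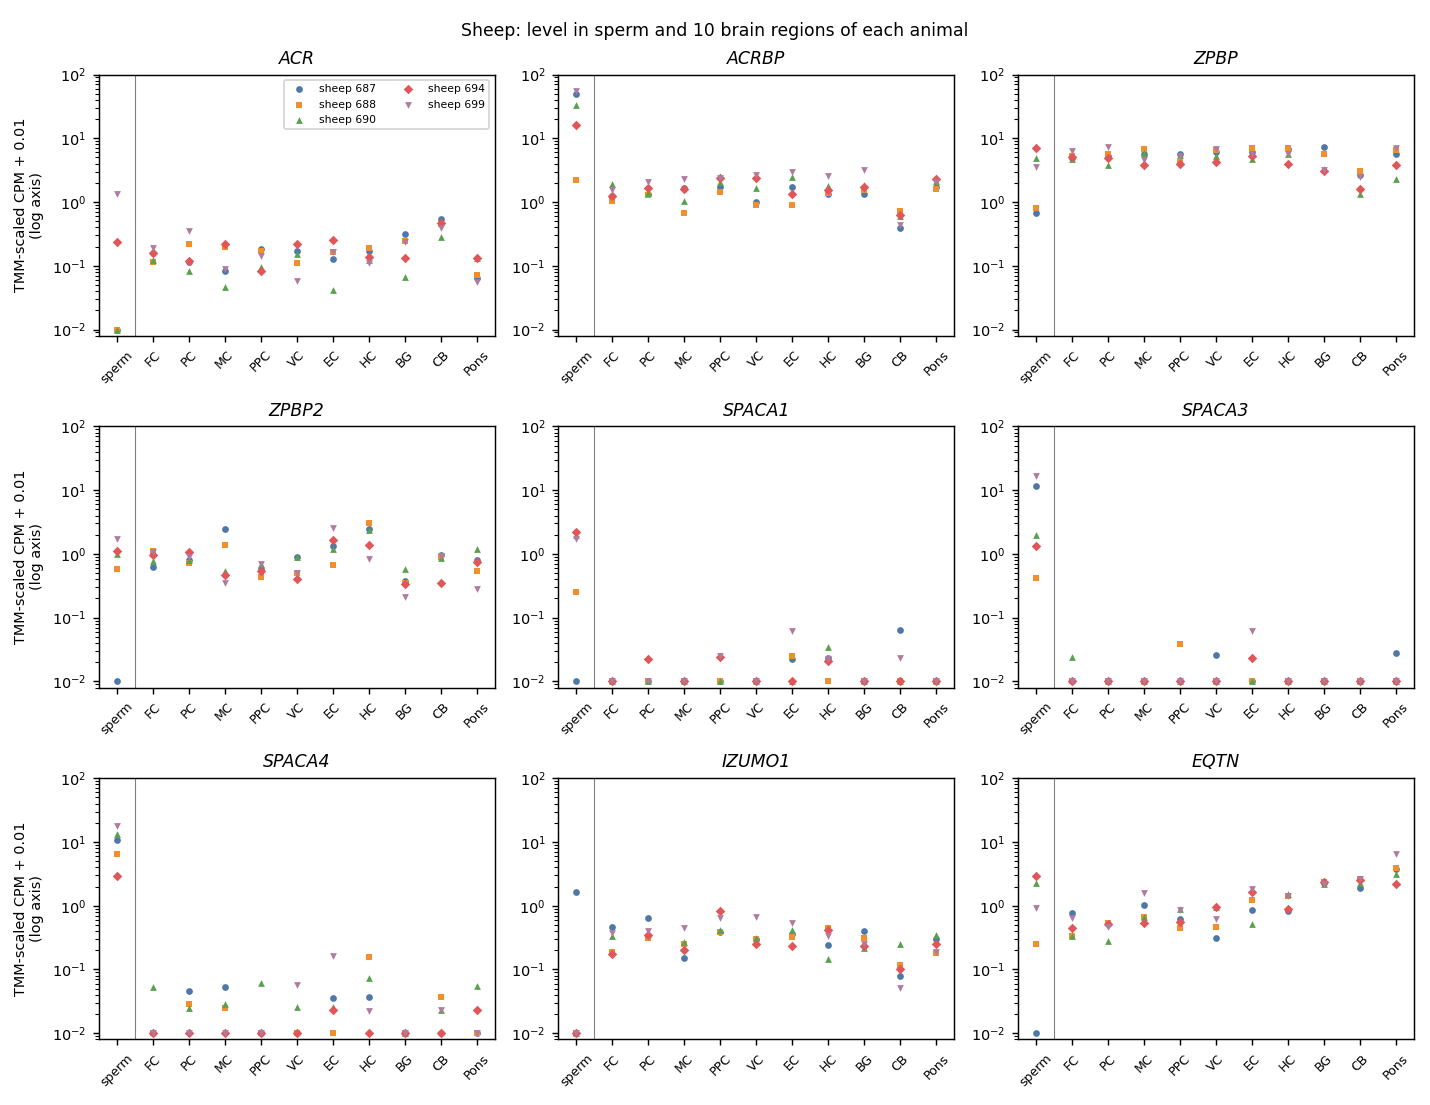
Level of the 9 genes of the sheep table in sperm and 10 brain regions, as TMM-scaled CPM plus 0.01 on a log axis, with 1 symbol per animal. SPACA3 and SPACA4 in sperm lie above all brain points, ZPBP, ZPBP2 and EQTN overlap them, and ACR is highest in the cerebellum among brain regions in each of the 5 animals.

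A term for the difference between species asked whether sperm and brain differ by the same amount in sheep and rat. Of 9 genes tested, 3 were called with a more positive contrast in rat, where 38.4% of the 15172 shared genes tested were, and none with a more positive contrast in sheep, where 23.9% were (62.3% in either direction). The term, sheep minus rat, was -5.62 ± 1.42 for ZPBP (SE, edgeR adjusted p = 7.26e-04), -4.39 ± 1.10 for ZPBP2 (edgeR adjusted p = 6.21e-04) and -3.62 ± 1.54 for EQTN (edgeR adjusted p = 0.0376), while its median over all genes was -0.69. EQTN lost its call with 3 other scalings or tools, with the replicate block and without sheep 687, 688 or 699. With relative log expression (RLE) factors the split over all genes turned to 5044 more positive in sheep and 3978 in rat, and the median to 0.22. SPACA3 was not called (2.68 ± 1.86, edgeR adjusted p = 0.206) but reached 6.22 with the block (edgeR adjusted p = 0.0180). ACR, ACRBP, SPACA1, IZUMO1 and SPACA4 were not called. Sheep and rat RNA were extracted and made into libraries with different kits, so species and preparation cannot be told apart.

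Ovary, which makes the egg that these proteins meet, was set against the brain of the same female rats. Of 6 genes tested, Zpbp2 was called higher, as were 27.7% of the 20801 genes tested, and Acr, Zpbp and Izumo1 were called lower, as were 29.2% (56.9% in either direction). The median of the 6 was -1.40, and that of all genes was 0.02. At least Acr and Izumo1, with at most 12 counts in an ovary library, passed the low-count filter through brain alone. The counts and the median therefore describe these 6 genes. Zpbp2 stood at 2.30 to 6.16 CPM in ovary with a median of 4.22, and at 0.795 to 2.46 CPM in female brain with a median of 1.29. In 13 of 14 ovaries it was above all brains, and the log2 fold change was 1.73 ± 0.15 (SE, edgeR adjusted p = 7.51e-12).

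Acr was at 0.0286 to 0.187 CPM in ovary (median 0.0586) and at 0.374 to 2.26 CPM in female brain (median 0.775). All ovaries were below all brains, for a fold change of -3.57 ± 0.27 (edgeR adjusted p = 2.43e-13). Izumo1 was at 0 to 0.178 CPM in ovary (median 0.0522) and at 0.450 to 0.993 CPM in brain (median 0.636), again without overlap, with a fold change of -3.39 ± 0.30 (edgeR adjusted p = 5.87e-12). With plain library totals both genes overlapped: only 2 of 14 ovaries were below all brains for Acr and 5 for Izumo1. With the dominant entries left out of the total both stayed apart. The share of all genes without overlap was not counted. Zpbp was at 0.0780 to 0.345 CPM in ovary (median 0.182) and at 0.214 to 1.15 CPM in brain (median 0.675), where 8 of 14 ovaries lay below all brains. Its fold change was -1.88 ± 0.21 (edgeR adjusted p = 1.37e-09).

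Eqtn in ovary, at 0.139 to 0.749 CPM (median 0.347), was below the brain median of 0.626 CPM in 13 of 14 samples. Its fold change of -0.92 ± 0.20 (edgeR adjusted p = 8.58e-05) stayed under the size a call needs. Acrbp was at 0.941 to 3.07 CPM in ovary and 1.18 to 3.54 CPM in female brain, and its difference of 0.11 ± 0.17 did not pass (edgeR adjusted p = 0.542). Of the 4 genes under the filter, Spam1 had 58 counts in the 14 ovaries, with at least 1 in each, and 2 counts in the 14 female brains. That is a ratio of 24.2 with a 95% exact counting interval of 6.41 to 205. The other 3 had few counts in ovary: 30 for Spaca1, 17 for Spaca4 and 4 for Spaca3, against 62, 6 and 56 in female brain. With no filter Spam1 was called higher (3.85), Spaca1 (-1.17) and Spaca3 (-3.43) were called lower, and Spaca4 was not called. In that fit 25.1% of all genes were called higher and 30.5% lower.

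Between rat sperm and ovary, which came from different animals, all 5 tested genes were called higher in sperm, where 22.9% of the 19611 genes tested were called higher, 27.9% lower and 50.8% in either direction. At least Spaca4, with at most 7 counts in an ovary library, passed the low-count filter through sperm alone, so the count describes these 5. The log2 fold change was 5.38 ± 0.47 for Acrbp, 6.82 ± 0.95 for Zpbp, 2.42 ± 0.57 for Zpbp2, 9.90 ± 1.25 for Spaca4 and 4.32 ± 0.93 for Eqtn (SE, edgeR adjusted p from 1.68e-11 for Acrbp to 4.33e-04 for Zpbp2). Zpbp stood at 6.14 without library 14. Acrbp and Spaca4 did not overlap between the groups. Zpbp2, with the smallest of these differences, was above all ovaries in 12 of 15 sperm libraries. Eqtn was above all ovaries in 6 sperm libraries, with nearly equal medians of 0.370 CPM in sperm and 0.347 CPM in ovary, and its fold change was 3.29 without library 14. Spam1 was below all ovaries in 8 of 15 sperm libraries, which had no count, and above all ovaries in the other 7. With no filter Acr (log2 fold change 7.07), Izumo1 (7.49), Spaca1 (9.36), Spaca3 (11.45) and Spam1 (7.92) were called higher too, as were 35.9% of all genes.

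Within the sheep brain, all 6 tested genes differed over the 10 regions, a call that 52.4% of the 21147 genes tested also received. SPACA1, SPACA3 and SPACA4 did not pass the filter, with 19, 10 and 59 counts over the 50 libraries. Over the 6 tested genes, the ranges of fitted region means had a median of 2.27 on the log2 scale, against 1.26 over all genes. The genes were not matched for level, and the median over all genes was 1.61 with no low-count filter.

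EQTN had the widest range of the 6, 3.12 on the log2 scale (edgeR adjusted p = 2.47e-12). In pons it stood at 3.73, 3.92, 3.14, 2.15 and 6.48 CPM in sheep 687, 688, 690, 694 and 699, a mean of 3.88 ± 1.61 (SD, n = 5), and it was highest there in 4 of 5 animals. Cerebellum (2.38 ± 0.30 CPM) and basal ganglia (2.27 ± 0.11 CPM) came next and overlapped with pons. All samples of these 3 regions lay above every sample of the 7 cortical and hippocampal regions, which averaged from 1.21 CPM in entorhinal cortex down to 0.456 ± 0.11 CPM in prefrontal cortex. Hippocampus (1.20 CPM) did not differ from entorhinal cortex beyond their spread, nor did visual, posterior parietal and motor cortex from each other (0.654 to 0.884 CPM).

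ACR peaked in the cerebellum, where it stood at 0.531, 0.449, 0.269, 0.454 and 0.377 CPM in sheep 687, 688, 690, 694 and 699. It was highest there in each of the 5 sheep, at 0.416 ± 0.10 CPM (SD, n = 5), and lowest in pons at 0.0808 ± 0.038 CPM. The range of region means was 2.28 (edgeR adjusted p = 5.49e-04). The other 8 regions averaged 0.116 to 0.188 CPM and overlapped with each other. These levels rest on 21 to 39 counts per cerebellar library and 2 to 21 counts in the other brain libraries.

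Cerebellum was at the other end for ACRBP, ZPBP and IZUMO1, which had their lowest mean there. ACRBP averaged 0.547 ± 0.14 CPM in cerebellum and 1.39 to 1.98 CPM in the other 9 regions (range 1.88, edgeR adjusted p = 2.13e-04), and all cerebellar samples but 1 lay below all samples of the others. ZPBP averaged 2.21 ± 0.72 CPM in cerebellum and 5.88 ± 1.25 CPM in hippocampus (range 1.43, edgeR adjusted p = 3.14e-04). IZUMO1 averaged 0.110 ± 0.079 CPM in cerebellum and 0.524 ± 0.19 CPM in posterior parietal cortex (range 2.26, edgeR adjusted p = 7.39e-04). The middle regions of these 3 genes overlapped.

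ZPBP2, like ZPBP, had its highest mean in hippocampus, but its lowest in basal ganglia rather than cerebellum. It stood at 2.41, 3.02, 2.35, 1.37 and 0.813 CPM in hippocampus of sheep 687, 688, 690, 694 and 699, and in basal ganglia at 0.366, 0.343, 0.576, 0.326 and 0.204 CPM (range 2.44, edgeR adjusted p = 3.82e-05). In hippocampus, sheep 699 was the low animal, and the peak was in hippocampus in 3 of 5 sheep. In entorhinal cortex, next in order at 1.46 ± 0.68 CPM, sheep 699 was the high animal at 2.50 CPM. Motor cortex ranged from 0.336 to 2.41 CPM between animals. All 6 calls over regions held with the animal as a block.

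In rat brain, none of the 6 tested genes was called between males and females by edgeR, where 0.0583% of the 20570 genes tested were called (0.0438% higher in males and 0.0146% lower). Acrbp averaged 2.69 ± 0.89 CPM (SD, n = 15) in males and 2.14 ± 0.62 CPM (SD, n = 14) in females, a log2 difference of 0.34 ± 0.17 (SE, edgeR unadjusted p = 0.0497, adjusted p = 0.504). It was the 1 gene of the 6 with an unadjusted p under 0.05. Izumo1 averaged 0.848 ± 0.30 CPM in males and 0.684 ± 0.19 CPM in females (0.33 ± 0.17, edgeR adjusted p = 0.526). Differences of the other 4 were -0.13 to 0.23. DESeq2 called none of the members either.

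In the brains of both species Acr, Acrbp, Zpbp, Zpbp2, Izumo1 and Eqtn had counts in each library, 29 of 29 in rat and 50 of 50 in sheep. Spaca1 had counts in 27 rat and 12 sheep brain libraries, Spaca3 in 26 and 6, and Spaca4 in 11 and 23. ZPBP averaged 5.01 ± 1.52 CPM (SD, n = 50) in sheep brain and 0.703 ± 0.21 CPM (SD, n = 29) in rat brain. The tables were scaled separately and the kits differed, so these levels are set side by side without a test.

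Overlapping genes bear on 4 of the values, because how reads shared by 2 genes were counted, and on which strand, is not given in the sources used here. Acr (chromosome 7, 122517910 to 122524110) shares 714 bases, 11.5% of its span, with Shank3 on the same strand. Shank3, a synaptic scaffold gene, averaged 203 ± 27.1 CPM in male rat brain, 35.2 ± 9.25 CPM in ovary and 4.31 ± 2.27 CPM in sperm. In sheep, SHANK3 averaged 101 ± 9.14 CPM in cerebellum, where ACR was highest, and more in basal ganglia and posterior parietal cortex (185 and 186 CPM). Its lowest region was pons (19.7 ± 7.44 CPM), where ACR was lowest too. The Spearman correlation between both genes was 0.06 over male and 0.27 over female rat brains and 0.41 over ovaries. It was -0.11 over rat sperm and 0.02 over the 50 sheep brain libraries. The 4 overlaps are those of the rat annotation, and no sheep annotation was at hand. Brain levels of ACR remain uncertain, and the part of Shank3 reads in them was not tested.

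Spaca4 lies wholly inside Fam83e, on the opposite strand. Fam83e averaged 123 ± 36.5 CPM in rat sperm and 0.515 ± 0.14 CPM in male brain, and the Spearman correlation between both genes was -0.33 over the 15 sperm libraries and 0.66 over the 14 ovaries. In sheep, FAM83E averaged 9.94 ± 4.09 CPM in sperm and 0.0705 ± 0.060 CPM over the 50 brain libraries. Eqtn (chromosome 5, 114851981 to 114880683) shares 3572 bases with Mysm1 on the same strand, which averaged 33.3 ± 3.98 CPM in male brain, 30.5 ± 4.06 CPM in ovary and 22.6 ± 4.76 CPM in sperm. MYSM1 in sheep averaged 21.7 ± 7.60 CPM in pons and 20.0 ± 4.03 CPM in prefrontal cortex, the regions where EQTN was highest and lowest. Zpbp (chromosome 14, 90047207 to 90244727) shares 641 bases with Spmip7 on the opposite strand, and the Spearman correlation between them was 0.85 over the rat sperm libraries. Levels of Spaca4, Eqtn and Zpbp carry the same uncertainty.

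Other genes of the same processes come from lists. Not each list is counted in each comparison, and the relatives of Spam1 are not counted. Where a count is given, it covers all tested genes of the list. The genes named here are called ones with large fold changes. In rat sperm against male brain, 9 of 13 tested further acrosome genes were called higher and none lower, where 27.7% and 31.5% of all genes tested were. Listed genes, too, could pass the filter through sperm alone, so these counts are descriptions. Crisp2, a cysteine-rich protein of the acrosome and tail, averaged 281 ± 484 CPM (SD, n = 15) in sperm with no count in the 15 male brains, and Spink2, an inhibitor of acrosomal proteases, was higher by 11.21 ± 1.23 (SE, edgeR adjusted p = 1.23e-09). Dkkl1 and Actl7a, a spermatid actin-related protein, were higher by 13.26 ± 1.58 and 7.79 ± 0.95. With the rat number as a block only 4 were called higher and 1 lower. Of the other fusion genes 3 of 4 tested were higher, Izumo4 among them (2.01 ± 0.67, edgeR adjusted p = 0.00756), and none of the 4 with the block. Zona adhesion genes, which include the spermatid chaperones Calr3, Clgn and Pdilt and the germ cell surface protein Tex101, had 5 of 6 higher, and 2 higher and 1 lower with the block. Tex101 was at 46.3 ± 39.7 CPM in sperm, with a lowest library of 5.11 CPM and a fold change of 12.31 ± 0.70.

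In sheep sperm, 13 of 16 tested further acrosome genes were called higher and 1 lower, and 5 of 6 other fusion genes were higher and 1 lower, where 33.1% of all genes tested were higher and 41.1% lower. With plain library totals 10 of the 16 were higher and 3 lower, and 3 of the 6 were higher and 1 lower. CAPZA3 and CYLC2, of the sperm head cytoskeleton, averaged 62.4 ± 62.0 and 36.0 ± 25.0 CPM (SD, n = 5) and were higher by 13.97 ± 0.41 and 12.28 ± 0.38 (SE, edgeR adjusted p = 6.40e-22 and 8.40e-28). LLCFC1, needed for fusion, averaged 79.6 ± 92.6 CPM in sperm and had no count in 50 brain libraries. Median log2 fold changes were 5.32 for the acrosome list and 3.23 for the fusion list in sheep, and 3.92 and 2.05 in rat.

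Egg partners, the zona pellucida and egg membrane proteins that these sperm proteins meet, were called in both comparisons with ovary. In rat ovary against female brain 6 of 8 were higher and none lower, where 27.7% of all genes tested were higher. In rat sperm against the same ovaries none of 8 was higher and 6 were lower, where 27.9% of all genes tested were lower. Outside the comparisons with ovary, Cd81 was called higher in rat sperm than in male brain (log2 fold change 1.07 ± 0.21, SE), as were 27.7% of all genes tested. In sheep sperm CD9 was called higher (1.71 ± 0.27) and CD81 lower (-2.37 ± 0.29), where 33.1% of all genes tested were higher and 41.1% lower. For sperm against brain the count of this list is not given. Zp2, a zona protein, averaged 18.0 ± 8.99 CPM (SD, n = 14) in ovary, 0.0965 ± 0.065 CPM in female brain and 0.0917 ± 0.26 CPM in sperm. Among relatives of Spam1, Hyal2 was higher than in brain both in rat sperm (103 ± 51.1 CPM, log2 fold change 3.46 ± 0.25, edgeR adjusted p = 8.19e-14) and in ovary (46.2 ± 5.34 CPM, 2.16 ± 0.07, edgeR adjusted p = 1.39e-22). Hyal2 had at least 22.5 CPM in each of the 15 sperm libraries, of which 8 had no count of Spam1.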

How the data were processed

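RNA of 5 sheep (brain regions and sperm, TRIzol and a Kapa kit) and 29 rats (brain, sperm or ovary, Zymo and Watchmaker kits) was sequenced as 150-base read pairs. For trimming the submitters used Trimmomatic (v0.39), for alignment STAR (v2.7.5a, genomes GRCr8 and ARS-UI_Ramb_v3.0) and for gene counts Rsubread (v2.20.0), as the design text states. DESeq2 is also named in the submitters' processing notes. Each deposited table holds raw counts, genes by libraries, without normalization. Which strand was counted, and what was done with shared reads, no source at hand states.

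Tests ran in R 4.3.3 with edgeR 4.0.16 (glmQLFit, TMM, filterByExpr by group, prior count 0.125) over the whole table. The sheep fit held all 55 libraries, the regions were tested by an F test over 50 libraries, and for the species term the 10 regions of an animal were added up. SE is the absolute log2 fold change over the root of F. Intervals cover counting error only. Alternatives were other scalings, no filter, DESeq2 1.42.0, entries above 5% of a library left out, single sheep and rat sperm libraries 16 and 17 left out, and a replicate block. Leaving out each rat sperm library, sperm libraries 7, 16 and 17, or brain libraries 1 and 4 was added after seeing the data. The fits were tested on simulated data.

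All 10 genes are named, though not each of them in every comparison. From each further list, up to 4 called genes with the largest fold change and at least 10 CPM in the higher group could be named, and the 5 genes with the highest Spearman correlation with the mean of the members. The members and lists were chosen with earlier results of these data known. Groups came from the sample titles. Sheep numbers name animals, and rat samples that share a number were taken as 1 animal, so these numbers pair the samples. Deviations of same-numbered samples correlated at -0.06 to 0.13 in rat sperm and brain, -0.04 to 0.09 in ovary and brain and 0.01 to 0.08 in sheep. The limit that a count of 0 allows, 3 counts over a group, is 0.0736 CPM in sheep sperm and 0.00437 CPM in rat sperm.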

Additional observations from a re-analysis of the deposited data

Results flagged for a closer look

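Single animals stood far from the other 4 of their group (Dixon's test, groups of 5) in 17 of 88 combinations of gene and sheep group. Chance flags about 1 in 20 such groups, and many of these combinations hold mostly zeros, where 1 library with a few counts is enough. In sperm the 2 cases were ACR in sheep 699 (1.35 CPM) and IZUMO1 in sheep 687 (1.61 CPM), each on 12 counts. Among well counted genes in brain, the cases were ACRBP in basal ganglia of sheep 699 (3.21 CPM), ZPBP in frontal cortex of sheep 699 (6.25 CPM), ZPBP2 in cerebellum of sheep 694 (0.337 CPM, the low animal), and IZUMO1 in prefrontal cortex of sheep 687 (0.636 CPM) and visual cortex of sheep 699 (0.650 CPM). The other 10 rest on 1 to 12 counts: SPACA1 in cerebellum of sheep 687 (0.0544 CPM) and prefrontal cortex of sheep 694 (0.0123 CPM). SPACA3 stood apart in entorhinal cortex of sheep 699 (0.0509 CPM), frontal cortex of sheep 690 (0.0142 CPM), pons of sheep 687 (0.0179 CPM), posterior parietal cortex of sheep 688 (0.0289 CPM) and visual cortex of sheep 687 (0.0162 CPM). SPACA4 stood apart in entorhinal cortex of sheep 699 (0.153 CPM), and in frontal (0.0425 CPM) and posterior parietal cortex (0.0514 CPM) of sheep 690.

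The difference between sperm and brain was called different between sheep and rat, by the species term of edgeR, for ZPBP (-5.62), ZPBP2 (-4.39) and EQTN (-3.62). The call of EQTN held in only 7 of 14 alternative fits, and those of ZPBP and ZPBP2 in all 14. Of all genes tested, 38.4% were called in this direction, and the median over all genes was -0.69. Species and library preparation cannot be told apart in this term.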

How the results depend on the processing

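Of counts and summary values, 188 stayed within 1.5 times or the spread and 16 moved further. Of values for single genes and lists, 1175 stayed the same, 61 moved, 4 gained and 11 lost a call and 32 reversed. For a fold change, the same means an unchanged direction and call. For a list count it means within 1.5 times, and for a level within the SD of its group. The cause was not tested. Members called in sheep sperm numbered 3, and 7 with plain totals, 5 with DESeq2, 2 with the replicate block and 2 to 4 over fits without 1 animal. In rat sperm against brain the 7 became 4 with the replicate block, and all genes called 22067 with no filter and 18371 with DESeq2. In ovary against brain members rose to 7 with no filter or DESeq2 and all genes to 18799 with no filter. In sperm against ovary members rose to 10 with no filter or DESeq2, which test more genes, and all genes to 19449 and 16112. Between the sexes all genes called were 19 with no filter, 37 with DESeq2 and 22 without brain libraries 1 and 4. The median Spearman correlation between members was 0.80 without sperm libraries 16 and 17.

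Reversed in sheep sperm were ACR (-1.32 plain totals, -1.21 without sheep 699, and up to 1.65 without another), ZPBP (0.24 upper quartile), ZPBP2 (-2.32 plain, -0.0895 no filter; -0.42 to 0.45 without 1 animal, reversed without 694 and 699), IZUMO1 (-2.75 plain, -0.0066 no filter, -0.0069 replicate block, -7.19 without 687, and up to 0.55 without another) and EQTN (-2.13 plain, -0.0510 no filter; -0.65 to 0.42 without 1 animal, reversed without 690 and 694). In rat sperm Izumo1 was -1.39 with the replicate block. In the species term ACRBP was 0.0778 (RLE), 0.0792 (DESeq2) and 0.0219 (upper quartile), SPACA1 0.54, 0.62 and 1.72 with these factors and DESeq2, 4.99 with the block, -0.69 to 0.36 without 1 animal and 0.20 without rat sperm libraries 7, 16 and 17, and SPACA4 0.84 with the block. Between the sexes Zpbp was 0.0322, Zpbp2 0.26 and Eqtn 0.22 with plain totals, Eqtn 0.0019 with DESeq2, and Zpbp2 0.0543 and Eqtn 0.0294 without brain libraries 1 and 4. The replicate block changed no other call of a member apart from those given in the report. Depth limits ACR, IZUMO1, SPACA1, ZPBP2 and EQTN in sheep sperm, with 14, 12, 44, 35 and 44 counts in all.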
